A study of Arabidopsis thaliana with 12 samples.

Results

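A group of 96 genes was higher with the synthetic abscisic acid (ABA) receptor agonist iSB09 to a like extent in seedlings with and without the engineered receptor CsPYL1-5m (CsPYL1_5m in the sample labels). It was drawn from a table of 37336 genes and was selected on measured values: the group means of log2(TPM + 0.5), where TPM is a length-normalised transcript abundance with the same sum in every sample, over 3 replicates. A member had a wild-type (WT) response, iSB09 minus mock, of 1 or more (log2), and a response in CsPYL1-5m plants from 0.5 below to 0.5 above it. In each genotype, its lowest iSB09 value was above its highest mock value, and its mean reached 2 TPM or more in both iSB09 groups. The 2 responses and their likeness are therefore a description of how the genes were chosen.

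RNA-seq was run on seedlings from 4 groups of 3 samples. CsPYL1-5m seedlings carry a sweet orange (Citrus sinensis) receptor with engineered substitutions, HA-tagged, under the constitutive 35S promoter in the Col-0 background, and were given 5 µM iSB09 or 0.1% DMSO as mock for 3 hours. WT Col-0 seedlings without the transgene had the same 2 treatments. Seedlings were labelled as grown for 12 days in liquid medium, an age on which the sources differ. The study selected homozygous T3 plants, and the number of independent lines behind these libraries was not stated, so the line and the transgene cannot be told apart. The replicates were stated to be separate experiments, and the p-values measure the spread between these samples. The table is one of Arabidopsis genes, and the citrus transgene was not measured.

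ABA receptors of the PYR/PYL/RCAR family close over their ligand and inhibit clade A protein phosphatases 2C (PP2Cs). This releases SnRK2 kinases, which act on ABF transcription factors that bind the ABA-responsive element (ABRE) in promoters. Seedlings also carry another network, centred on SnRK1, that reads sugar and energy status, with trehalose 6-phosphate as a sugar signal, and genes such as the dark-inducible DIN genes are known outputs of darkness and sugar shortage.

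The bases just upstream of the annotated start are shown for 6 members, because the motifs in them are counted further on and because none lies inside another gene. Sequences and starts are those of RefSeq for TAIR10.1, each read 5′ to 3′ toward the gene, with the last base next to the start. Capitals mark an ABRE (ACGTGGC or ACGTGTC) in RVE2, GDPD2 and BMY3, TATCCA in AT2G20670, J8 and BMY3, and the evening element (AAATATCT) in CYP71B20, each on either strand.
RVE2, chr5:14753089-14753260, minus strand: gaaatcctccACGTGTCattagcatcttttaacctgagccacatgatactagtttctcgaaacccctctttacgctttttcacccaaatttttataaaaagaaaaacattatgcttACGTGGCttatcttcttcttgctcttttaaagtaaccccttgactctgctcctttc
GDPD2, chr5:16441587-16441654, plus strand: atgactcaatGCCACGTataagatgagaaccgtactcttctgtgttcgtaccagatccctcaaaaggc
BMY3, chr5:6225864-6225955, plus strand: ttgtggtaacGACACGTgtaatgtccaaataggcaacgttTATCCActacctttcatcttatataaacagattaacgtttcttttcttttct
AT2G20670, chr2:8913748-8913836, minus strand: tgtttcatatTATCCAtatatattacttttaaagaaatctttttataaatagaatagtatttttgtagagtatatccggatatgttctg
J8, chr1:30404714-30404855, minus strand: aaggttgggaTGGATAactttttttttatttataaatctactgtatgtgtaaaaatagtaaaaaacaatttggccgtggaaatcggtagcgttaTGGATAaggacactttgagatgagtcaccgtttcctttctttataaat
CYP71B20, chr3:9580114-9580188, minus strand: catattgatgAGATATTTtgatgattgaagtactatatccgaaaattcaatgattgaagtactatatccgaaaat
RVE2 thus carried 2 ABREs, 56 and 162 bases before its start, and J8 carried TATCCA 48 and 132 bases before its start.

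The reads counted on genes, recovered from steps in the RPKM values, were 25746050 to 30696833 in the CsPYL1-5m libraries and 21502003 to 21754261 in the WT libraries. Depth did not overlap between genotypes, so depth and genotype cannot be told apart. A gene of 1000 bases with 3 reads would be at 0.158 to 0.235 TPM, which covers counting error only. Of the 74 members whose reads came out whole, 7 had under 10 reads in a sample, and AT1G55525 and AT5G02535 had 1 read in their lowest sample. Shoot markers (RBCS1A and 3 light-harvesting genes) and 7 root markers were present in every sample, as the seedling label says. In CsPYL1-5m plants the shoot sum was 23222 to 26254 TPM with iSB09, against 28999 to 31210 TPM with mock, and the root sum was 160 to 180 TPM, against 186 to 207 TPM. In WT plants the shoot sum was 24150 to 32505 TPM with iSB09, against 30347 to 33520 TPM with mock, and the root sum was 134 to 160 TPM, against 161 to 188 TPM. The guard cell lineage genes SPCH, MUTE and FAMA summed to 9.64 to 11.8 TPM with iSB09, against 21.3 to 21.8 TPM with mock, in CsPYL1-5m plants, and to 21.9 to 26.9 TPM with iSB09, against 24.9 to 31.9 TPM with mock, in WT plants. The part of these shifts in the results was not tested. Of 3 seed storage and LEA genes (SESA3, CRA1 and EM1), the sum was 5.88 to 11.5 TPM in CsPYL1-5m samples and 0 to 0.697 TPM in WT samples. In CsPYL1-5m mock samples the sum came mostly from 1 gene, which averaged 5.59 TPM, and the other 2 averaged under 1 TPM. The origin of this gap between genotypes was not tested. In these bulk samples, fewer cells of a type and less RNA per cell cannot be told apart.

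The WT libraries stood apart from each other for these genes, most of all with iSB09. WT iSB09 replicate 2 was the highest of its group in 80 of the 96 genes, and replicate 1 was the lowest in 83. The median spread within this group (SD of log2 values) was 0.427 for the members against 0.136 for all genes tested. In iSB09-treated CsPYL1-5m plants it was 0.13 against 0.104. Among WT mock samples, replicate 1 was the highest in 61 members and replicate 3 the lowest in 57. Their median spread was 0.283 against 0.143, and that of CsPYL1-5m mock samples was 0.182 against 0.102. Between samples of the same replicate number, the median WT response was 0.78 for number 1, 1.80 for number 2 and 1.38 for number 3, and 28, 92 and 88 members reached 1. In CsPYL1-5m plants the same medians were 1.21, 1.39 and 1.51, with 68, 78 and 79 members at 1 or more. Same-numbered CsPYL1-5m samples did not deviate together over all genes, so their differences are not read as matched pairs. WT iSB09 replicate 2 also had the lowest shoot marker sum of its group (24150 TPM, against 32505 and 28232) and the lowest root marker sum (134 TPM, against 160 and 157). The part of these differences in the results was not tested.

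**Figure D1:**
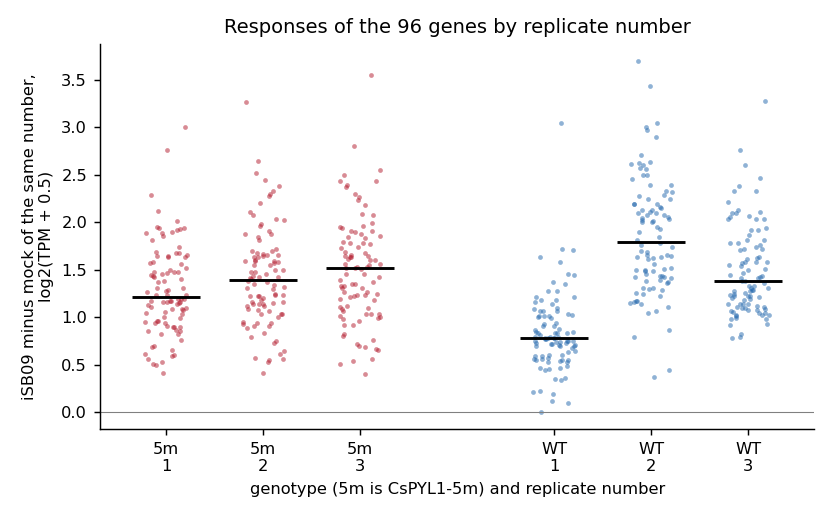
Responses of the 96 genes (points; iSB09 minus mock of the same replicate number, log2(TPM + 0.5)) for each replicate number in CsPYL1-5m plants (left) and WT plants (right), with black bars at the medians. The WT medians run between 0.78 and 1.80 and the CsPYL1-5m medians between 1.21 and 1.51.

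The choice of genes moved with these libraries. Without replicate 1 of every group the rule took 159 genes, of which 72 were among the 96, and without replicate 2 it took 70, of which 43 were. Leaving out only WT iSB09 replicate 2 gave 66 genes (46 shared), and leaving out only WT iSB09 replicate 1 gave 144 (77 shared). Of the 96 members, 23 were taken whichever replicate number was left out. For 21 the choice also held with pseudocounts of 0.1 and 1, with median-ratio scaling and in the RPKM table, among them AT2G20670, TPS8, J8, DYL1, RVE2, CYP71B20, GDPD2 and MYBL2.

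When the genes were chosen on 2 replicates and read in the one left out, the increase was still there for most genes. The likeness held for a minority of the genes with replicate 1 or 2 left out, and for a majority with replicate 3 left out. With replicate 1 left out, the 159 genes chosen had a median response of 1.19 in CsPYL1-5m plants and 0.59 in WT plants, and 69 of them were within 0.5 of each other. With replicate 2 left out, the medians of the 70 genes were 1.42 in CsPYL1-5m plants and 1.64 in WT plants, and 29 were within 0.5. With replicate 3 left out, those of the 94 genes were 1.53 and 1.34, and 58 were within 0.5. Genes above 0 numbered 158, 66 and 94 in CsPYL1-5m plants and 156, 65 and 94 in WT plants for replicates 1 to 3.

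In the full data, 435 genes met all of the criteria except likeness. The 96 members were 22.1% of them, 299 responded more strongly in CsPYL1-5m plants by over 0.5 and 40 less strongly by over 0.5. The members' responses ran between 0.54 and 2.94 in CsPYL1-5m plants (median 1.35) and between 1.003 and 3.34 in WT plants (median 1.27). The response was the larger one in CsPYL1-5m plants for 49 members and in WT plants for 47. Near the edges, XND1 (WT response 1.003) and AT2G29310 (1.006) were just inside the limit on the WT response, and AT5G62140 (0.997) and AT3G46590 (0.996) just outside. For the likeness, LECRKA4.2 and CCL had differences of 0.495 and -0.500, against 0.503 for AT1G58030 and -0.502 for AT5G51390, which were left out. At the TPM limit, AT3G60966 (means of 2.27 TPM in CsPYL1-5m and 2.05 TPM in WT plants with iSB09) and AT5G02535 (2.18 and 2.36) were just inside, and AT1G20120 (1.06 and 1.43) and AT2G13810 (1.02 and 1.03) outside.

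**Figure D2:**
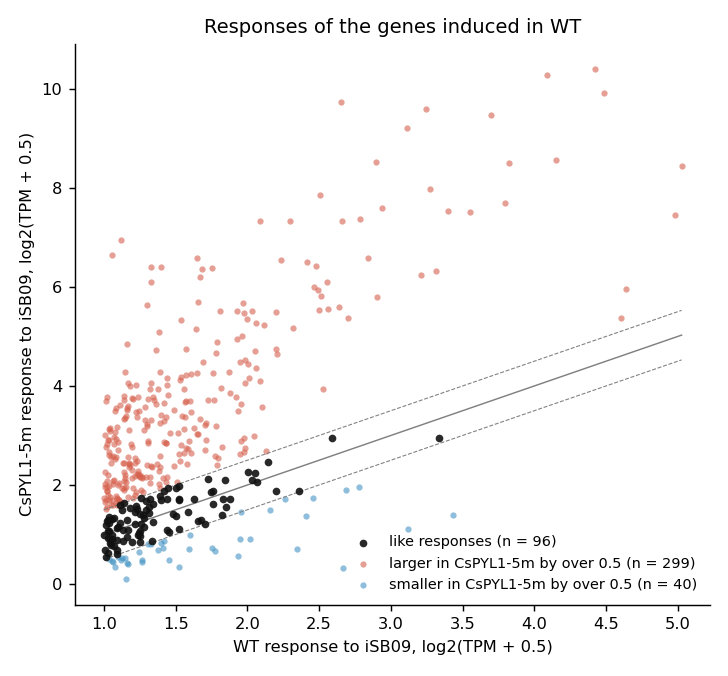
Response to iSB09 in CsPYL1-5m plants (vertical axis) against that in WT plants (horizontal axis), log2(TPM + 0.5), for the 435 genes that met the criteria apart from likeness, with the line of equal response and dashed lines 0.5 above and below. The 96 members lie between the dashed lines by construction, and 299 genes lie above them.

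Among 19862 genes tested in CsPYL1-5m plants, 75 of the 96 members were called higher with iSB09 (limma on log2(TPM + 0.5), Benjamini-Hochberg adjusted p below 0.05 and a log2 fold change above 1), beside 9.17% of all genes. In WT plants 82 of the 93 members tested were called, beside 2.28% of 19612 genes. Since the rule used both contrasts, nothing is read from these counts. The WT count was 53 without replicate 2, 0 without replicate 3 and 54 without WT iSB09 replicate 2. Without replicate 3, 82 members had an unadjusted p below 0.05 (limma), beside 3001 of 19768 genes tested. In CsPYL1-5m plants the median over all genes was -0.16, which median-ratio scaling removed. With that scaling 97 genes met the rule, 80 of them members, and CsPYL1-5m plants had a median response of 1.51 over the members and WT plants one of 1.25 over those tested.

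The largest smaller-of-both response was that of AT2G20670, which encodes a DUF506 protein. It was at 151, 165 and 193 TPM in iSB09-treated CsPYL1-5m plants, against 21.9, 16.8 and 27.3 TPM in mock-treated ones. WT plants had 132, 234 and 134 TPM with iSB09, against 15.6, 17.6 and 13.4 TPM with mock. All iSB09 samples stood several-fold above all mock samples, and the iSB09 samples of the 2 genotypes overlapped. Another DUF506 gene, AT4G32480, was a member too, with responses of 1.88 in CsPYL1-5m and 2.36 in WT plants.

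CHX17, a cation/proton exchanger of endomembranes, was at 16.9, 18.2 and 21.6 TPM in iSB09-treated CsPYL1-5m plants, against 1.68, 3.34 and 1.38 TPM with mock. Its WT level was 7.34, 41.5 and 13.4 TPM with iSB09, against 1.88, 3.37 and 1.79 TPM with mock. The 3 WT iSB09 values were thus widely spread around close values in CsPYL1-5m plants, with replicate 2 the highest. HSPRO2, the ortholog of a sugar beet nematode resistance protein whose product is known to bind SnRK1, had the same layout. Its values were 69.7, 80.1 and 101 TPM in iSB09-treated CsPYL1-5m plants, against 13.9, 12.4 and 18.2 TPM with mock. In WT plants they were 44.5, 124 and 49.3 TPM with iSB09, against 14.02, 14.96 and 13.96 TPM with mock.

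**Figure D3:**
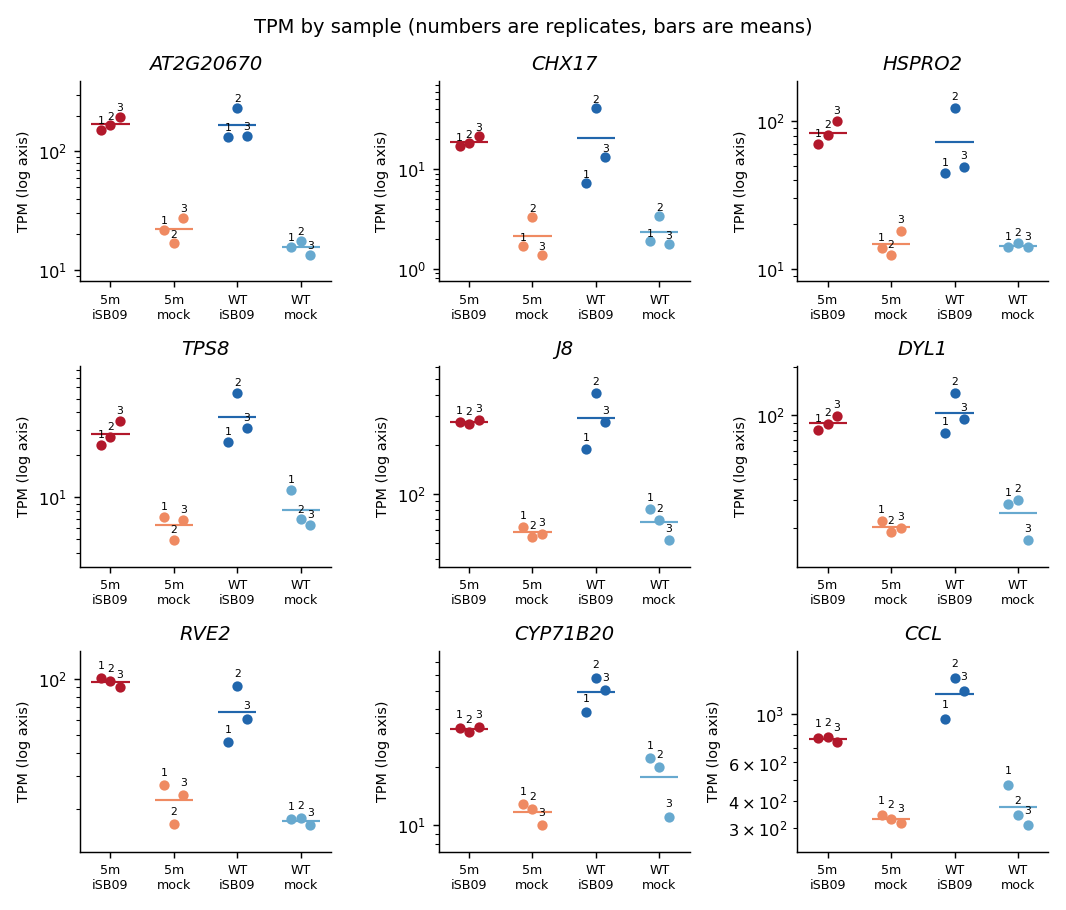
TPM by sample (log axis) of 9 members in CsPYL1-5m plants (5m) and WT plants with iSB09 or mock, with points numbered by replicate and bars at the means. In each panel the iSB09 samples of a genotype lie above its mock samples, and WT iSB09 replicate 2 is the highest sample of its group.

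Class II trehalose phosphate synthases (TPS5 to TPS11) are proteins related to the enzyme that makes trehalose 6-phosphate, and some are known to bind SnRK1. Of the 7 genes, on a list drawn up after the members were seen, TPS8, TPS9 and TPS10 were members (3.12%, beside 0.0187% of the table). TPS8 was at 23.3, 26.8 and 34.4 TPM in iSB09-treated CsPYL1-5m plants, against 7.19, 4.95 and 6.91 TPM with mock. WT plants had 24.4, 55.1 and 31.0 TPM with iSB09, against 11.2, 6.94 and 6.30 TPM with mock. Its responses were 2.07 in both genotypes. TPS10 averaged 70.5 ± 3.46 TPM with iSB09 and 24.5 ± 0.783 TPM with mock in CsPYL1-5m plants (SD, n = 3 each), and 57.7 ± 19.1 TPM with iSB09 and 23.8 ± 5.14 TPM with mock in WT plants. For TPS9 the responses were 1.06 in CsPYL1-5m plants and 1.25 in WT plants. Their relatives TPS6 and TPS11 responded more strongly in CsPYL1-5m plants (2.21 and 3.58) than in WT plants (1.15 and 2.103), with differences of 1.06 (adjusted p = 0.00057) and 1.47 (adjusted p = 0.01, limma). TPS5 and TPS7 had responses of 0.54 and 0.52 in CsPYL1-5m plants and of 0.31 and 0.36 in WT plants. In all, 5 of 7 were called higher in each genotype, beside 9.17% of all genes tested in CsPYL1-5m plants and 2.28% in WT plants.

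Among 20 genes known for darkness and sugar starvation, on a list drawn up after the members were seen, 4 were members: DYL1, BXL1, BMY3 and DIN4. They were 4.17% of the members, and the list was 0.0536% of the table. DYL1 (also DRM1), named for its homology to dormancy-associated proteins, was at 81.1, 88.3 and 98.5 TPM in iSB09-treated CsPYL1-5m plants, against 22.1, 18.8 and 20.02 TPM with mock. In WT plants it was at 77.3, 138 and 95 TPM with iSB09, against 28.0, 29.7 and 16.8 TPM with mock. The iSB09 values of the 2 genotypes overlapped, as did the mock values. BXL1, a cell wall beta-xylosidase, averaged 51.2 ± 0.774 TPM with iSB09 and 19.5 ± 3.48 TPM with mock in CsPYL1-5m plants, and 93.7 ± 44.9 TPM with iSB09 and 24.8 ± 6.7 TPM with mock in WT plants. BMY3 (also BAM9), of the beta-amylase family, had responses of 1.28 in CsPYL1-5m and 1.65 in WT plants. DIN4, the E1 beta subunit of the branched-chain keto acid dehydrogenase, had the smallest response of all members in CsPYL1-5m plants, 0.54, beside 1.01 in WT plants. Over the 20 genes, CsPYL1-5m plants had 9 called higher and 1 lower, beside 9.17% of all genes tested called higher. WT plants had 10 of the list called higher, beside 2.28% of all genes tested. SEN5, KMD1 and DIN10 of this list had responses smaller in CsPYL1-5m plants than in WT plants (differences of -2.04, -2.35 and -2.101, adjusted p = 0.0049, 0.00021 and 0.0016, limma).

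Breakdown of branched-chain amino acids was represented by DIN4 and by MCCA, the biotin-carrying subunit of methylcrotonyl-CoA carboxylase. MCCA was at 13.97, 14.8 and 15.7 TPM in iSB09-treated CsPYL1-5m plants, against 6.96, 6.07 and 6.41 TPM with mock. WT plants had 12.0, 24.3 and 15.1 TPM with iSB09, against 7.98, 6.73 and 7.67 TPM with mock. The other subunit, MCCB, had responses of 0.38 and 0.52. Of the 12 genes on this list, 6 were called higher in CsPYL1-5m plants and 3 in WT plants. UMAMIT28 and UMAMIT29, amino acid exporters, were members with responses of 1.08 and 1.596 in CsPYL1-5m plants and of 1.04 and 1.11 in WT plants.

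**Figure D4:**
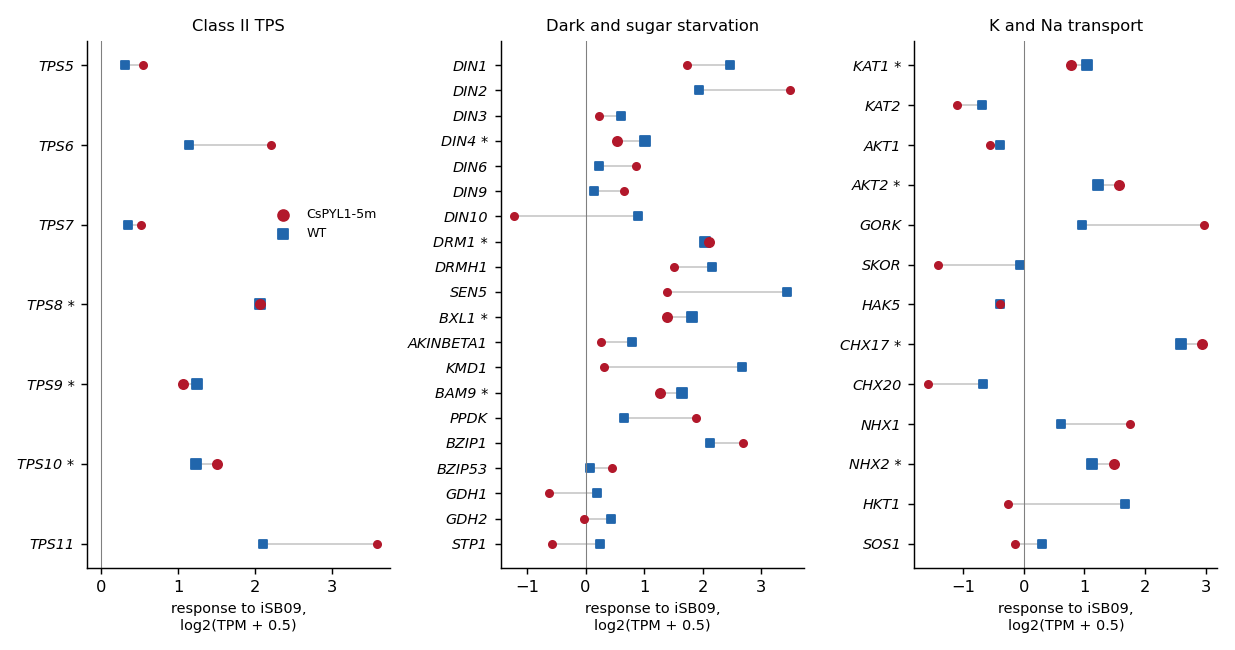
Responses to iSB09 (log2(TPM + 0.5), horizontal axis) in CsPYL1-5m plants (red circles) and WT plants (blue squares) for class II TPS, dark and sugar starvation, and potassium and sodium transport genes, with an asterisk for members. Members have both symbols close together by construction, and in each panel other genes have them apart, such as TPS11 (3.58 and 2.103), KMD1 (0.32 and 2.67) and GORK (2.97 and 0.95).

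The list of potassium and sodium transport genes was drawn up after the members were seen. It held 4 members among 13 genes (4.17% of members, beside 0.0348% of the table). Besides CHX17 these were KAT1, an inward-rectifying potassium channel known from guard cells, KT2/3 (AKT2), a weakly rectifying channel of the phloem, and NHX2, a vacuolar antiporter. KAT1 was at 21.0, 19.6 and 21.97 TPM in iSB09-treated CsPYL1-5m plants, against 10.6, 13.0 and 12.4 TPM with mock. Its WT level was 24.0, 27.4 and 29.9 TPM with iSB09, against 14.6, 9.91 and 14.5 TPM with mock. The mock samples of the 2 genotypes overlapped, and the iSB09 samples of WT were all above those of CsPYL1-5m plants. KT2/3 and NHX2 had responses of 1.58 and 1.49 in CsPYL1-5m plants and of 1.22 and 1.13 in WT plants. In NHX2 and KT2/3 WT iSB09 replicate 2 was the lowest of its group (17.9 TPM for NHX2, against 30.2 and 30.4), the opposite of most members. GORK, the outward-rectifying guard cell channel, and NHX1 responded more strongly in CsPYL1-5m plants, with differences of 2.01 and 1.14 (adjusted p = 2.7e-05 and 0.00028, limma). Over the 13 genes, CsPYL1-5m plants had 5 called higher and 3 lower, and WT plants had 5 called higher and 0 lower. Of all genes tested, 1821 were called higher and 1659 lower of 19862 in CsPYL1-5m plants. The WT counts were 448 and 302 of 19612.

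Cytochrome P450 monooxygenases were the largest family. They made up 7 of the members (7.29%), beside 0.664% of the table and 0.807% of the 20081 genes tested for the difference. The 299 genes with larger responses in CsPYL1-5m plants held 11 P450 genes. Of the P450 genes tested, 36 of 160 were called higher in CsPYL1-5m plants and 18 of 157 in WT plants. Over all genes tested the shares were 9.17% and 2.28%. CYP71B20 was at 31.9, 30.4 and 32.1 TPM in iSB09-treated CsPYL1-5m plants, against 12.8, 12.1 and 9.97 TPM with mock. WT plants had 38.8, 58.2 and 50.04 TPM with iSB09, against 22.2, 19.9 and 11.04 TPM with mock. It stood higher in WT than in CsPYL1-5m plants in every iSB09 sample. CYP71B12, CYP706A7 and CYP705A19 had responses of 1.88, 1.56 and 1.21 in CsPYL1-5m plants and of 2.198, 1.85 and 1.22 in WT plants. CYP71B19 and CYP71B20 are neighbours on chromosome 3 (9573263-9575215 and 9578032-9580113), and CYP71B12 and CYP71B13 on chromosome 5 (8668232-8670237 and 8672316-8674749). Only uniquely mapped reads were counted, so values of such close relatives are uncertain. These were the only 2 pairs of members that were adjacent protein-coding genes.

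Transcription factors of the MYB family supplied 4 members (4.17%, beside 0.412% of the table), and 6 of the 299 genes with larger responses in CsPYL1-5m plants. MYBL2, a repressor of anthocyanin synthesis, was at 64.3, 47.9 and 64.7 TPM in iSB09-treated CsPYL1-5m plants, against 33.3, 21.4 and 28.0 TPM with mock. In WT plants it was at 90.5, 81.8 and 73.3 TPM with iSB09, against 39.8, 30.2 and 21.9 TPM with mock. The other 3 were MYB45 (1.94 in CsPYL1-5m and 1.502 in WT plants), AT5G47390 (1.24 and 1.11), known as KUA1, and MYB20 (0.96 and 1.25), which is known for secondary cell walls. MYB45 did not pass in WT plants (adjusted p = 0.074, limma), where its iSB09 values were 6.83, 27.8 and 7.67 TPM. The list of ubiquitin ligase and F-box genes also had 3 members, AT1G26800, AT3G60966 and AT1G14200, all of the RING/U-box type, and its share was 3.12% of the members beside 3.41% of the table.

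Genes of the clock or under its control included RVE2 and CCL. RVE2, a MYB-like factor of the REVEILLE family, was at 101, 97.0 and 90.0 TPM in iSB09-treated CsPYL1-5m plants, against 26.9, 16.6 and 23.8 TPM with mock. Its WT level was 45.5, 91.2 and 61.0 TPM with iSB09, against 17.6, 17.8 and 16.4 TPM with mock. CCL, a clock-regulated transcript, was the most abundant member, with 777, 785 and 743 TPM in iSB09-treated CsPYL1-5m plants, against 347, 333 and 319 TPM with mock. WT plants had 951, 1461 and 1270.0 TPM of CCL with iSB09, against 473, 345 and 310.4 TPM with mock. Of the 16 clock genes 7 were called higher in CsPYL1-5m plants and 2 in WT plants.

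J8 and J11 encode small J-domain proteins of the chloroplast. J8 was at 275, 269 and 282 TPM in iSB09-treated CsPYL1-5m plants, against 63.0, 54.5 and 56.9 TPM with mock. WT plants had 188, 415 and 274 TPM with iSB09, against 80.6, 69.5 and 52.3 TPM with mock. J11 responded by 0.997 in CsPYL1-5m plants and 1.24 in WT plants. Among the other abundant members, TIP2;2, a vacuolar membrane aquaporin, averaged 251 ± 20.1 TPM with iSB09 and 105 ± 18.5 TPM with mock in CsPYL1-5m plants, and 193 ± 9.33 TPM with iSB09 and 82.9 ± 41.3 TPM with mock in WT plants. ASPG1, an aspartic protease known from guard cells, averaged 224 ± 14.4 TPM with iSB09 and 92.6 ± 2.15 TPM with mock in CsPYL1-5m plants, and 219.5 ± 22.2 TPM with iSB09 and 108 ± 1.82 TPM with mock in WT plants. Its difference between responses, 0.25, had the narrowest 95% interval of the group, 0.24 on either side. AT2G05540, AT3G52060, AT1G21680, AT5G25280 and AT4G05070 completed the 10 most abundant, with responses from 0.60 to 1.79 in CsPYL1-5m plants and from 1.04 to 1.502 in WT plants.

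Strigolactones are carotenoid-derived hormones that restrain branching. Of 13 genes of strigolactone and karrikin signalling, CCD8, the carotenoid cleavage dioxygenase of the synthesis route, and AT3G03990, which encodes the receptor D14, were members. They were 2.08% of the members, and the list, drawn up after the members were seen, was 0.0348% of the table. CCD8 was at 4.82, 4.91 and 10.02 TPM in iSB09-treated CsPYL1-5m plants, against 1.16, 2.42 and 1.30 TPM with mock. In WT plants it was at 2.03, 6.82 and 8.73 TPM with iSB09, against 1.84, 1.17 and 1.33 TPM with mock. Replicate 1 of WT with iSB09 was close to its mock samples. The response of CCD8 did not pass in WT plants (adjusted p = 0.062, limma). D14 had responses of 0.86 in CsPYL1-5m plants and 1.13 in WT plants. KAI2, the related karrikin receptor, had 1.495 and 0.59, a difference of 0.90.

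Cell wall and lipid genes were spread thinly. FRA8 and FAR1, which act in xylan and in suberin alcohol synthesis, had responses of 1.98 and 1.94 in CsPYL1-5m plants and of 1.52 and 1.44 in WT plants. KCS16, of fatty acid elongation, had 1.55 in CsPYL1-5m and 1.32 in WT plants, and MUM2, a beta-galactosidase, 0.76 and 1.07. DMR6, a salicylic acid hydroxylase, was at 42.3, 47.6 and 57.2 TPM in iSB09-treated CsPYL1-5m plants, against 14.8, 18.3 and 16.2 TPM with mock. WT plants had 28.4, 126 and 32.8 TPM with iSB09, against 19.5, 27.2 and 18.4 TPM with mock. In WT with iSB09, replicate 2 was several-fold above the other 2, which were near the highest mock sample. The WT response of DMR6, 1.18, did not pass (adjusted p = 0.17, limma).

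Some members with little support were low transcripts, while others, such as DMR6, had widely spread WT iSB09 values. AT1G55525, a noncoding RNA, was at 1.68, 3.16 and 4.42 TPM in iSB09-treated CsPYL1-5m plants, against 0.494, 0.174 and 0.666 TPM with mock. Its WT level was 0.726, 7.08 and 1.71 TPM with iSB09, against 0.241, 0.465 and 0.243 TPM with mock. Its difference between the responses had the widest 95% interval, 1.64 on either side. The long noncoding RNA AT1G08903 was better measured, with 22.9, 24.0 and 28.7 TPM in iSB09-treated CsPYL1-5m plants, against 5.66, 4.21 and 4.66 TPM with mock. Its WT values were 15.7, 20.8 and 20.6 TPM with iSB09, against 4.91, 3.56 and 4.64 TPM with mock. Of the remaining members named for size of response, AT5G57785, AT1G19660, AT5G03230 and AT3G49790 had responses of 1.71 to 2.13 in CsPYL1-5m plants and 1.72 to 1.88 in WT plants.

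Likeness within 0.5 is a property of the means and was narrower than the data resolve. The 95% interval of the difference between responses lay within 1 on either side of 0 for 58 members and reached past it for 38, and its median reach on either side of the estimate was 0.674. It held 0 for 91 members. None of the 96 was called for the difference in either direction (limma, adjusted p below 0.05 and over 1), beside 9.63% of 20081 genes, as the rule itself required. At an unadjusted p below 0.05 there were 5, beside 8787 of the 20081 genes. The 1 with an adjusted p below 0.05 was AT5G50450 (0.63 in CsPYL1-5m and 1.02 in WT plants, difference -0.39, adjusted p = 0.019, limma).

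The difference between genotypes in mock samples was no criterion of the rule, but the mock values entered it through both responses, so what follows is a description. CsPYL1-5m and WT mock samples were compared in 88 members, and 0 were called in either direction, near the 0.0666% called of 19530 genes (limma). At an unadjusted p below 0.05 there were 7, beside 1700 of the 19530 genes, and the lowest adjusted p was 0.33 (limma). The differences, CsPYL1-5m minus WT, ran between -0.67 (AT2G15880, a leucine-rich repeat protein) and 0.47 (AT2G20670), with a median of -0.05, and 85 of 88 were within 0.5. Among protein-coding genes, the members had a median level of 10.8 TPM in mock samples. It was 5.62 TPM for those of the 299 genes with larger responses in CsPYL1-5m plants, and 16.5 TPM for the genes tested.

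With iSB09, likeness of the responses left the levels of the 2 genotypes free to differ only as far as the mock levels did plus 0.5. None of the 96 members was called between CsPYL1-5m and WT plants (limma, adjusted p below 0.05 and over 1), beside 10.8% of genes tested. At an unadjusted p below 0.05 there were 24, beside 11429 of 19656 genes tested. Without the fold limit, 18 members (18.8%) had an adjusted p below 0.05, beside 51.0% of genes tested, 6 higher and 12 lower in CsPYL1-5m plants. With median-ratio scaling the split was 13 higher and 2 lower, without WT iSB09 replicate 2 it was 32 higher and 13 lower, and without WT iSB09 replicate 1 it was 3 higher and 17 lower, so no direction is given for the group. AT4G23493, an uncharacterised gene, was higher in CsPYL1-5m plants by 0.76 (adjusted p = 0.0017). It was at 7.02, 6.95 and 6.10 TPM in iSB09-treated CsPYL1-5m plants, against 3.72, 3.44 and 4.08 TPM in iSB09-treated WT plants. CCL and CYP71B20 were lower in CsPYL1-5m plants, with differences of -0.65 (adjusted p = 0.012) and -0.61 (adjusted p = 0.0098). AT2G15880 had a difference of -0.75 (adjusted p = 0.026), beside -0.67 in mock samples. BXL1 had a difference of -0.76 that did not pass (adjusted p = 0.07), as its WT values were widely spread.

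None of the 66 genes on 5 ABA lists was a member. The lists each hold 0.0107% to 0.083% of the table, so 0 of 96 is near their share of the whole table. The 299 genes with larger responses in CsPYL1-5m plants did hold ABA genes. They included 22 of the 31 ABA target genes, 6 of the 9 clade A PP2C genes and all 4 CYP707A genes. They also held 1 of the 8 SnRK2 and ABF genes and 0 of the 14 ABA receptor genes. The 9 clade A PP2C genes were all called higher in CsPYL1-5m plants and 6 of 7 tested in WT plants, with median responses of 4.74 and 1.81. The 31 ABA target genes had 29 calls in CsPYL1-5m plants and 22 of 29 tested in WT plants. The 4 CYP707A genes, which break down ABA, were called in both genotypes, and of 9 ABA receptor genes tested, 7 were called lower in CsPYL1-5m plants and 4 in WT plants.

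The windows from 250 bases before to 50 bases after the start were read for short motifs on both strands. The ABRE was in 15 of 96 members (15.6%, exact 95% binomial interval 9.02% to 24.5%), in 25.4% of the 299 genes with larger responses in CsPYL1-5m plants, in 1 of the 40 with smaller ones, in 9% of the genes tested and in 6.54% of all windows. The G-box (CACGTG), which overlaps some ABREs, was in 13.5% of members, 23.1% of the 299 genes and 6.53% of all windows. TATCCA, added to the list after the members had been seen, was in 35 members (36.5%), in 23.1% of the 299, in 15 of the 40 genes with smaller responses (37.5%), in 16.4% of the genes tested and in 15.8% of all. In the 250 bases before the start alone it was in 25 members (26%), 18.7% of the 299, 27.5% of the 40, 14.1% of the genes tested and 13.1% of all. It is the amylase element of cereal amylase promoters, known there for sugar control. The evening element (AAATATCT), known from clock-controlled promoters, was in 11.5% of members, 11% of the 299 and 5.10% of all. The dehydration-responsive element (ACCGAC or GCCGAC) was in 7.29% of members, 15.7% of the 299 and 8.66% of all, and the auxin element (TGTCTC) in 8.33%, 15.1% and 14.2%. The W-box (TTGACC or TTGACT) was in 31.2% of members and 31.4% of all windows. These are matches of letters, and no match was tested as a site.

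**Figure D5:**
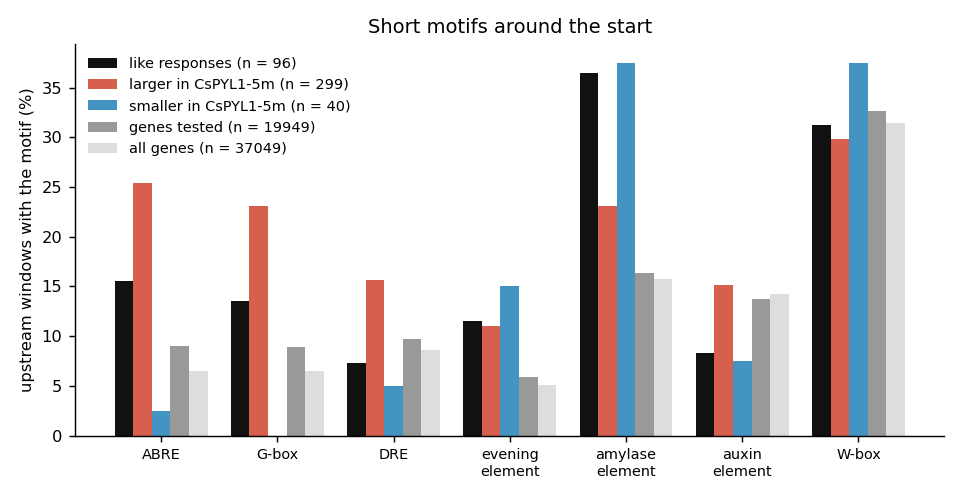
Share (%) of windows from 250 bases before to 50 after the start that hold each motif on either strand, for the 96 members (black), the 299 genes with larger responses in CsPYL1-5m plants (red), the 40 with smaller ones (blue), the genes tested (grey) and all genes (light grey). The ABRE is at 15.6% in members, 25.4% in the 299 genes and 2.5% in the 40, and the amylase element (TATCCA) at 36.5%, 23.1% and 37.5%.

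Members were on all 5 nuclear chromosomes (28, 8, 20, 14 and 26 on chromosomes 1 to 5), and 93 were protein-coding. Their coding sequences had a median of 990.0 bases, against 1014 for the 299 genes and 1158 for tested genes. Genes whose exons, merged over all annotated transcripts, formed 1 block were 28.0% of members, 22.6% of the 299 and 15.5% of tested genes. An intron kept in 1 transcript can merge the exons of a spliced gene, so these shares are not those of intronless genes. Another gene overlapped 22 members (22.9%, beside 29.9% of tested genes), among them J8, BMY3, DIN4, NHX2 and CCD8. Since counting did not use the strand, reads of such partners cannot be told apart.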

How the data were processed

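Read pairs were trimmed (cutadapt), mapped to TAIR10 (HISAT2), kept where unique and assigned to Araport11 genes without strand (HTSeq-count) by the authors, who deposited TPM and RPKM values for each of the 12 samples. All columns of both tables were used (0 per-sample columns were left over). Reads were recovered from the deposited RPKM values and exon lengths of the RefSeq TAIR10.1 annotation (within 0.02 reads of a whole number, widening above 500 reads) and entered no test.

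Members were found on log2(TPM + 0.5) group means. The members and gene lists were chosen with earlier results of these data known, the lists of dark and sugar starvation, amino acid breakdown, class II TPS, clock, strigolactone, and potassium and sodium transport genes after the members were seen. Each contrast was fitted over all genes with limma 3.58.1 (R 4.3.3, variance trend) on its 6 samples, and the difference between responses on all 12. A gene entered a fit if every replicate of one of its groups reached 1 TPM. A call needed a Benjamini-Hochberg adjusted p below 0.05 together with a log2 change above 1 in size. The fits were tested on simulated data. Named were the 15 members with the largest smaller-of-both responses, the 10 most abundant with iSB09, those nearest each limit, the 5 largest genotype differences with iSB09, and 3 to 5 of each family with 3 or more members. Other members were named for their known roles after their values were seen. Motifs were read with Python 3.11.15 and Biopython 1.88, and plots made with matplotlib 3.10.9.

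Alternatives were pseudocounts of 0.1 and 1, no filter, other limits in the rule, median-ratio scaling, the RPKM table, the replicate number as a block, a single fit of the 12 samples, and omission of each replicate. In WT, samples of the same replicate number deviated together over all genes, though weakly (correlations of 0.16, 0.30 and 0.21). Among the members, WT replicate 1 went the other way, highest of the mock samples in 61 and lowest of the iSB09 samples in 83. In the other contrasts same-numbered samples did not deviate together.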

Additional observations from a re-analysis of the deposited data

Results flagged for a closer look

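AT5G50450, a MYND zinc finger protein gene, was the member whose responses differed by a test of the difference itself (limma), at -0.39 (response of 0.63 with the transgene and 1.02 in WT, adjusted p = 0.019). The rule had held this difference within 0.5 for every member. Members with an adjusted p below 0.05 (limma) numbered 2, 9 and 0 without replicates 1, 2 and 3. The following values are the CsPYL1-5m response minus the WT response (log2) of genes that are not members but stand on lists with 3 or more members, and each passed the same test. Among dark and sugar starvation genes, KMD1 was at -2.35, DIN10 at -2.10 and SEN5 at -2.04, while PPDK was at 1.23. Among class II TPS genes, TPS11 was at 1.47 and TPS6 at 1.06. Among potassium and sodium transport genes, GORK was at 2.01 and NHX1 at 1.14, while HKT1 was at -1.94 and SKOR at -1.35.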

How the results depend on the processing

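Under the pseudocounts, the TPM limits, median-ratio scaling and the RPKM table, the rule took 74 to 107 genes, of which 70 to 96 were members. A likeness within 0.25 gave 47 and within 1 gave 200, and leaving out a replicate number gave 70 to 159. Leaving out WT iSB09 replicate 1 or 2 alone, chosen after seeing the data, gave 144 and 66. Members called in WT numbered 0 to 75 with a replicate left out and 54 without WT iSB09 replicate 2, and 66 to 92 in the other settings, and those called in CsPYL1-5m plants 72 to 88 in all settings. None was called between genotypes in mock samples under any setting. With iSB09, 0 to 1 was called between genotypes with a replicate left out, 1 without WT iSB09 replicate 1 and 2 without replicate 2. For the difference between responses the same counts were 0 to 3, 0 and 2. The causes were not tested.

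With the replicate number as a block, 85 members were called in WT, 75 in CsPYL1-5m plants and 0 in each of the other contrasts, so the block moved no count by over 1.5 times. The correlations of same-numbered samples were -0.14 to 0.12 for the CsPYL1-5m response, -0.02 to 0.10 between genotypes in mock samples and -0.01 to 0.08 with iSB09. The core ACGTG alone was in 37.5% of member windows and in 31.2% before the start; the full ABRE stayed at 11.5% to 15.1% in the other windows and subsets. Medians in left-out replicates were 1.195 to 1.54 in CsPYL1-5m plants and 0.56 to 1.62 in WT plants with a pseudocount of 1, and 1.22 to 1.54 and 0.60 to 1.49 with median-ratio scaling.

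For the members with the largest responses or the highest levels, 254 of 286 alternative values kept their side of the threshold in WT, 251 of 253 in CsPYL1-5m plants, and 166 of 234 for the members with an adjusted p under 0.05 (limma) between genotypes with iSB09, the other 68 being weaker. No sign turned in the 3 comparisons. Depth limits the members with under 10 reads.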
